A study of Mus musculus with 2 samples.

Results

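A set of 10 genes known for axon growth and regeneration was read in dorsal root ganglion (DRG) neurons of the mouse: Stmn2, Gap43, Basp1, Stmn4, Gadd45a, Smad1, Sox11, Flrt3, Sprr1a and Ecel1. The genes were taken by symbol from a named list whose rule used no measured value, although the list was drawn up with earlier results of these data known, and all 10 were found, on 12 of the 35034 RefSeq transcript rows and among 24411 genes in all. The expression level is given as TPM, the share of a transcript among all transcripts of the library after correction for length and scaled to the same total, so that genes can be compared with each other. TPM was summed over the rows of a gene.

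The 2 libraries came from wild-type male C57BL/6J mice, bought as young adults, and the labels name no transgene or deletion in either group. One library was made from mice given 50% alum, an aluminium adjuvant, intraperitoneally on days 0 and 14, and the other from mice given keyhole limpet hemocyanin (KLH, 100 µg), a foreign protein antigen, in the same alum. Ganglia of the thoracic and lumbar levels were taken on day 28, digested with collagenase/dispase, enriched for neurons over albumin and depleted of B cells with beads. The neurons of 10 mice were pooled into each library, so every gene has 1 value per group and no difference below has a replicate check or a p-value. The deposited title of the control calls it both naïve and alum alone, and it is treated here as alum. Because the axons were cut and the cells dissociated before RNA was made, neither pool stands for uninjured neurons.

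A sensory neuron whose axon is cut can switch on a growth program. Stress-responsive transcription factors act first, and their targets include proteins of the growth cone, the motile tip of the axon, proteins that keep microtubules dynamic, and neuropeptides. Several growth cone proteins are also made by intact adult sensory neurons, whereas others, such as Sprr1a and Ecel1, are known as genes that intact sensory neurons hardly express and that nerve injury switches on.

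Of the 10 genes, 8 were above 3 TPM, the detection limit of the study, in both pools, against 45.5% of all genes. Stmn2 led at 2496 TPM in the alum pool and 2446 TPM in the alum + KLH pool, where it was the 23rd and the 25th most abundant of all genes. Sprr1a and Ecel1 were below 3 TPM in both pools. None of the 8 genes above 3 TPM was 2-fold apart between the pools on the (TPM + 1) scale, where 1.64% of the 11648 genes above 3 TPM in at least 1 pool were, 0.695% with the higher and 0.944% with the lower value in the alum + KLH pool. Of those 191 genes, 167 (87.4%) were microRNA or small nucleolar RNA genes, and without such genes the share was 0.211%. With no limit on level, 1 of the 10 genes was 2-fold apart on that scale, against 0.905% of all genes. It was Sprr1a, at 2.50 TPM in the alum pool and 0.401 TPM in the alum + KLH pool.

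**Figure D1:**
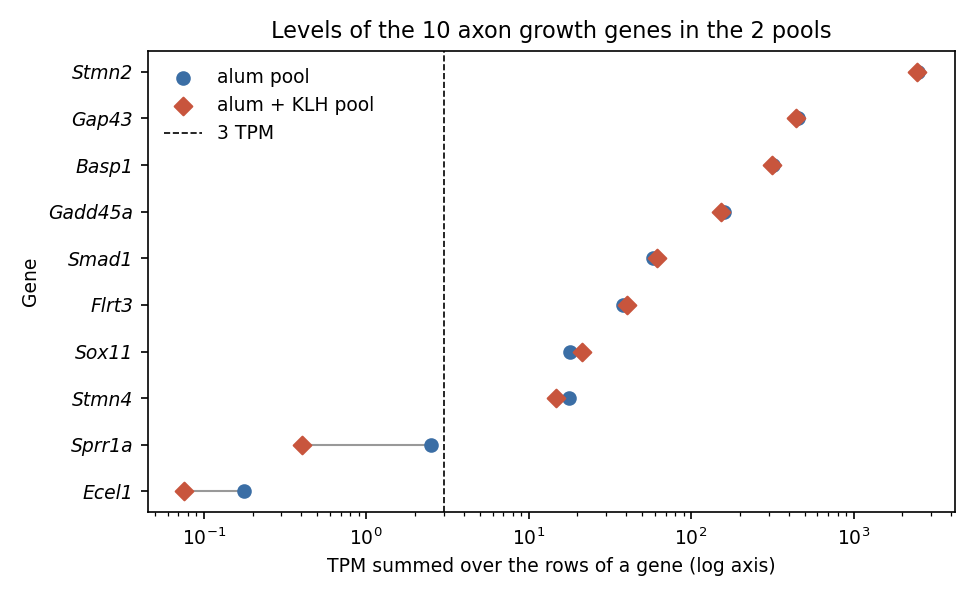
TPM of each of the 10 genes (log axis) in the alum pool (circles) and the alum + KLH pool (diamonds), 1 library each, with the 3 TPM limit dashed. The 8 genes from Stmn2 down to Stmn4 lay at 14.9 TPM or higher in both pools, with nearly coinciding symbols, while Sprr1a and Ecel1 lay to the left of the limit with their symbols apart.

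The sequence upstream of Sprr1a is shown because Sprr1a was the gene that differed most between the pools, and that of Gadd45a, an abundant stress-response gene, for contrast. Both are the 250 bases before the RefSeq start on build GRCm38.p6, both read on the minus strand. Capitals mark matches to TGANTCA or to TATAAA, the TATA box. TGANTCA, in which N is any base, takes in the site of the AP-1 factors (the family of Jun, Fos and Atf3). A match to it is called an AP-1 match below, and its share of promoters is not that of TGAGTCA alone. TGACGTCA, the cyclic AMP response element, and TTCNNNGAA, the STAT site, were searched as well, all on both strands.
Sprr1a, chr3:92485882-92486131: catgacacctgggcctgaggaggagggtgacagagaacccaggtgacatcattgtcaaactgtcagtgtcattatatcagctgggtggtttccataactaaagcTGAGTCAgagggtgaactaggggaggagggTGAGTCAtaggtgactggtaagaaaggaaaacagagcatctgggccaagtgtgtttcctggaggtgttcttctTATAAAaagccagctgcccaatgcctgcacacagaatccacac
Gadd45a, chr6:67037408-67037657: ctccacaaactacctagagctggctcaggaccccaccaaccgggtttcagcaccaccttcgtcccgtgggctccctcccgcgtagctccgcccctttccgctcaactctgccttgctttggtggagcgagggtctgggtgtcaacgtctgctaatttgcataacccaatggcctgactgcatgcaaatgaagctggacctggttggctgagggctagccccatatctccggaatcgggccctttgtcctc
The Sprr1a stretch held TGAGTCA at 146 and again at 116 bases before the RefSeq start, and TATAAA at 43 bases before it. GENCODE places the start of Sprr1a further upstream, so that the last 14 bases of the stretch lie in its first exon. Of 32851 annotated promoters of this length, 6.75% held an AP-1 match, 12.4% a TATA match, 1.55% a match to the cyclic AMP response element and 7.02% a STAT match. Promoter entries were found for 7 of the 10 genes, and the other 6 (Gadd45a, Basp1, Smad1, Sox11, Flrt3 and Ecel1) held 0 matches to any of the motifs. Of the 250 bases, however, 165 for Ecel1 and 90 for Smad1 lie in the first exon that GENCODE gives them. A match is a string of letters and does not show that a factor was bound. The motifs were chosen after the values had been seen.

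Of the growth cone and microtubule genes, Stmn2, Gap43 and Basp1 were the most abundant of the set and Stmn4 was the lowest of the 8 above 3 TPM in the alum pool and in the alum + KLH pool. Stmn2 (SCG10, NM_025285) encodes a stathmin, a protein that binds tubulin dimers and keeps microtubules dynamic in the growing axon. It is a gene of 5 exons on the plus strand of chromosome 3 (8509360 to 8561606, GRCm38), and it made up 69.9% of the summed TPM of the set in the alum pool and 70.0% in the alum + KLH pool. Gap43 (NM_008083, chromosome 16, 42248442 to 42340651, 3 exons) encodes a palmitoylated protein of the growth cone membrane. It was at 456 TPM in the alum pool and 442 TPM in the alum + KLH pool, so that Stmn2 stood 5.47-fold and 5.53-fold above it. Basp1 (CAP23, NM_027395, chromosome 15, 25363277 to 25413764, 2 exons) encodes a myristoylated membrane protein that, like GAP43, acts on the actin cytoskeleton. It was at 322 and 316 TPM. Stmn4 (RB3, NM_019675, chromosome 14, 66344304 to 66361680, 6 exons), another neuronal stathmin, was far below Stmn2 at 17.6 and 14.9 TPM, a gap of 142-fold and 165-fold. The order Stmn2, Gap43, Basp1, Stmn4 was the same in both pools.

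To compare the pools, (TPM + 1) of the alum + KLH pool was divided by (TPM + 1) of the alum pool and put on a log2 scale, which understates the change of low genes. The spread of such ratios among the 500 genes nearest in level, called the neighbour SD here, gives a yardstick that describes these libraries and is no replicate error. The ratio was -0.03 for Stmn2, with a neighbour SD of 0.16. That of Gap43 was -0.05 with an SD of 0.16, and that of Basp1 -0.03 with an SD of 0.19. Stmn4 had the lowest ratio of the 8 genes above 3 TPM, -0.23, which was within its neighbour SD of 0.35. Of the 500 genes closest to Stmn4 in level, 14% were at least as far apart. All 4 ratios were below 0, by less than the neighbour SD. Over the 8 genes above 3 TPM, 5 ratios were below 0 and 3 above it, and relative to Hprt, which shifted the median of all genes above 3 TPM from -0.02 to -0.10, 6 were below and 2 above. In bulk RNA, fewer cells of a type and less RNA per cell cannot be told apart.

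**Figure D2:**
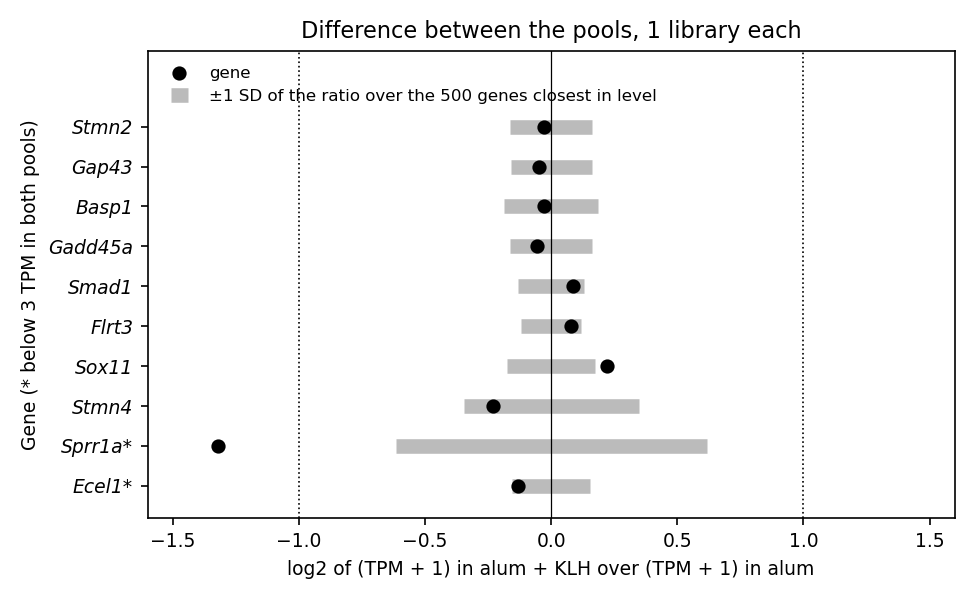
Points give, for each gene, log2 of (TPM + 1) in the alum + KLH pool over (TPM + 1) in the alum pool, and grey bars span ±1 neighbour SD. Dotted lines mark 2-fold. Of the genes above 3 TPM, Sox11 alone lies outside its bar, at 0.22 against 0.18. Stmn4, at -0.23, lies inside a wider bar of 0.35. The shares of neighbours at least as far apart were similar, 13% for Sox11 and 14% for Stmn4. Sprr1a (asterisk, below 3 TPM) lies beyond the 2-fold line at -1.32.

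Among the nuclear proteins, Gadd45a was the highest. It encodes a small protein induced by DNA damage and other stress, and it is a known early gene of injured sensory neurons. Gadd45a (NM_007836) lies on chromosome 6 (67035096 to 67037406, 4 exons). Its level was 160 TPM in the alum pool and 153 TPM in the alum + KLH pool, with a log2 ratio of -0.06 and a neighbour SD of 0.16. Of its 31-base words, 17.4% also occur in E230016M11Rik, a noncoding gene that overlaps it on the opposite strand and was at 5.66 and 4.39 TPM. The strand setting of the authors' quantification is not given in the sources used here, so reads in the overlap cannot be told apart. For the other 9 genes at most 0.636% of these words occur in another gene, and no exon of another gene overlaps theirs.

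Smad1 encodes a transcription factor that bone morphogenetic protein (BMP) receptors phosphorylate, and it is required for axon growth of adult sensory neurons. Smad1 (NM_008539, chromosome 8, 79338395 to 79399518, 7 exons) was at 58.4 TPM in the alum pool and 62.1 TPM in the alum + KLH pool, and its log2 ratio of 0.09 was within the neighbour SD of 0.13. Sox11 encodes a transcription factor of developing neurons that returns after nerve injury. It is a single-exon gene (NM_009234, chromosome 12, 27334264 to 27342574, minus strand) with 18.1 TPM in the alum pool and 21.2 TPM in the alum + KLH pool. The ratio, 0.22 on the log2 scale, was the highest of the set and exceeded the neighbour SD of 0.18, and 13% of the 500 genes closest in level were at least as far apart. Sox11 and Stmn4 were neighbours in level in the alum pool, 1.03-fold apart, and 1.43-fold apart in the alum + KLH pool, where Sox11 had the higher and Stmn4 the lower value.

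Flrt3 encodes a membrane protein with leucine-rich repeats that binds latrophilins and Unc5 receptors and promotes neurite growth. It is the only gene of the set besides Ecel1 with more than 1 row. NM_178382 (chromosome 2, 140658198 to 140671469, 3 exons) was at 32.9 TPM in the alum pool and 35.2 TPM in the alum + KLH pool, and NM_001172160 at 5.15 and 5.11 TPM. The former therefore held 86.5% and 87.3% of the TPM of the gene. Both rows have the same coding exons, of 1947 bases in all, and differ outside them. The gene total was 38.1 and 40.3 TPM, a log2 ratio of 0.08 with a neighbour SD of 0.12.

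Sprr1a and Ecel1 formed the low end of the set. Sprr1a (NM_009264, chromosome 3, 92483952 to 92485895, 2 exons) encodes a small proline-rich protein, first known from the cornified envelope of skin cells and in injured neurons linked to axon outgrowth. Its 2.50 TPM in the alum pool was exceeded by 48.6% of all genes and its 0.401 TPM in the alum + KLH pool by 62.6%. The level was 6.23-fold lower in the alum + KLH pool. On the log2(TPM + 1) scale the ratio was -1.32, with a neighbour SD of 0.62, and 5.8% of the 500 genes closest in level were at least as far apart. Among all 24411 genes with no limit on level, 0.508% were at least 2-fold lower in the alum + KLH pool. The files give TPM without read counts, so no counting error is given for these low values. Ecel1 (DINE), a membrane metallopeptidase that is among the most strongly induced genes of injured motor and sensory neurons, was at 0.177 and 0.0760 TPM and was exceeded by 68.2% and 72.5% of all genes. Its row NM_021306 (chromosome 1, 87147655 to 87156521, 18 exons) held 97.8% and 98.7% of this. In TPM, Ecel1 was 2.33-fold lower in the alum + KLH pool, while on the log2(TPM + 1) scale the ratio was -0.13 with a neighbour SD of 0.16.

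The 2 values of a gene are its whole pattern in these data. By distance between these pairs of values on the log2(TPM + 1) scale, the gene nearest to Stmn2 was Eif4a2, at 2479 TPM in the alum pool and 2547 TPM in the alum + KLH pool, and the gene nearest to Gap43 was Fkbp1b, at 468 and 441 TPM. Within a distance of 0.1 there were 4 genes around Stmn2, 27 around Gap43, 141 around Smad1 and 0 around Sprr1a. The gene nearest to Sprr1a was Rpl36, at 3.12 and 0.393 TPM and a distance of 0.24.

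Each of the genes was next read beside its relatives. Of the stathmins, Stmn1 was at 751 TPM in the alum pool and 704 TPM in the alum + KLH pool, and Stmn3 at 379 and 384 TPM. Stmn2 held 68.5% and 68.9% of the stathmin TPM and Stmn4 0.484% and 0.419%. Gap43 and Basp1 belong with Marcks and Marcksl1 to the membrane proteins with a basic effector domain. Marcks was at 82.7 and 89.8 TPM, and Marcksl1 at 43.2 and 32.5 TPM. The log2 ratio of Marcksl1, -0.40, was larger than its neighbour SD of 0.14, and 2.6% of the 500 genes closest in level were at least as far apart.

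Sox11 was the highest of the SoxC factors, 2.92-fold and 4.57-fold above Sox4, which was at 6.19 TPM in the alum pool and 4.65 TPM in the alum + KLH pool. Sox12 was below 3 TPM, at 1.45 and 1.56 TPM. Gadd45b was at 30.5 and 25.1 TPM and Gadd45g at 7.18 and 5.59 TPM, so that all 3 Gadd45 genes had the lower value in the alum + KLH pool, also after the pools were rescaled to a common median or to Hprt. Gadd45b had a log2 ratio of -0.27 with a neighbour SD of 0.17, and Gadd45g -0.31 with an SD of 0.22. Flrt2 was at 9.15 and 9.23 TPM and Flrt1 at 2.76 and 2.38 TPM, both below Flrt3.

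The other Smad genes spanned a wide range. Smad9, the close relative of Smad1 in BMP signalling, stood at 60.3 TPM in the alum pool and 67.7 TPM in the alum + KLH pool, 1.03-fold and 1.09-fold above Smad1. Smad5, the other BMP-regulated Smad, was at 21.1 and 20.7 TPM. Together, Smad1, Smad5 and Smad9 came to 140 and 150 TPM, against 47.7 and 46.9 TPM for Smad2 and Smad3, which carry transforming growth factor β signals. Smad2 was at 46.2 and 45.7 TPM and Smad3 at 1.48 and 1.20 TPM. The common partner Smad4 was at 68.4 and 68.3 TPM. Of the inhibitory Smads, Smad7 was at 3.52 and 3.54 TPM and Smad6 at 0.448 and 0.568 TPM.

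The relatives of the low genes differed from each other. Of the 16 small proline-rich genes, 13 were listed at 0 in both pools, among them Sprr1b, Sprr3 and Sprr4. Sprr2a1 and Sprr2a2 had identical values, 0.186 and 0.228 TPM, and cannot be told apart. Sprr1a thus had the highest value of its family in both pools. Of the keratinocyte markers, Krt5 and Krt14 were listed at 0 in both pools, and the summed level of the 7 markers with a row was 6.02 TPM in the alum pool and 5.72 TPM in the alum + KLH pool, of which Krt10 made up 4.43 and 4.36 TPM. In the peptidase family of Ecel1, Ece2 was at 30.2 and 27.3 TPM, Ece1 at 20.3 and 16.7 TPM and Mme (neprilysin) at 18.3 and 20.1 TPM. Phex was at 0.863 and 0.883 TPM, Mmel1 at 0.0216 and 0 TPM, and Kel was listed at 0 in both pools.

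**Figure D3:**
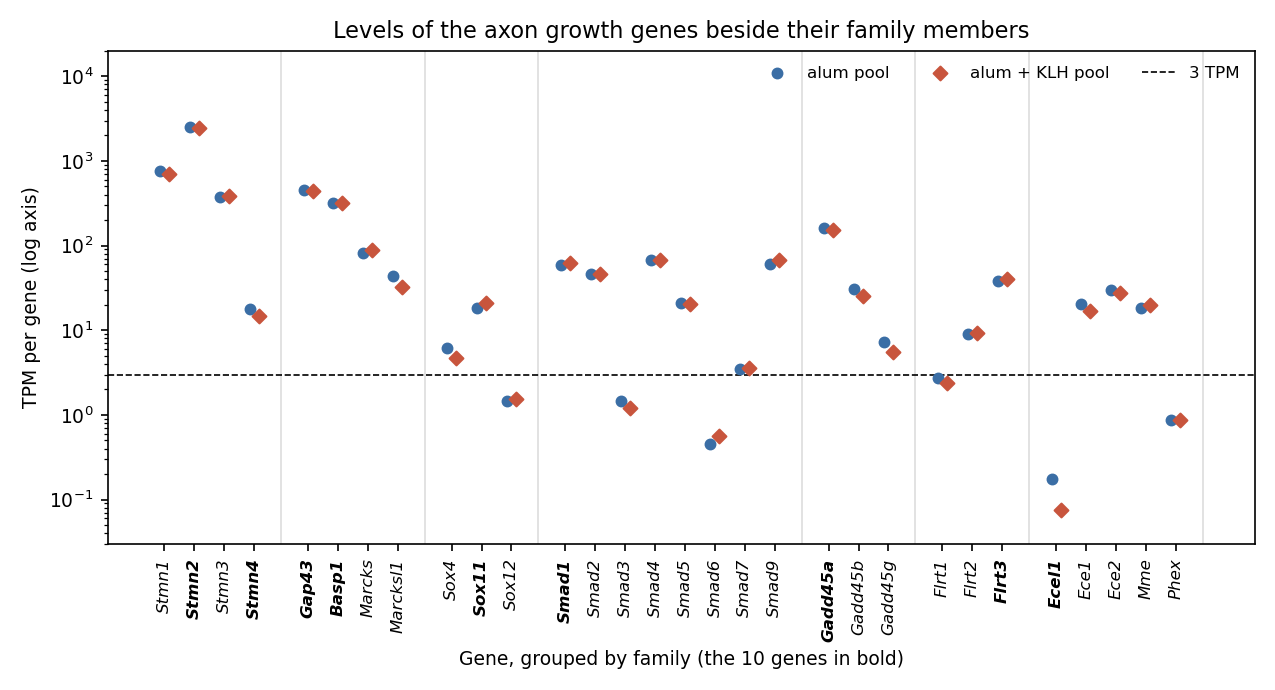
TPM (log axis) of the genes in bold and of their family members in the alum pool (circles) and the alum + KLH pool (diamonds), 1 library each, with 3 TPM dashed. Stmn2, Gap43, Sox11, Gadd45a and Flrt3 were the highest of their groups, Smad1 was near Smad9 and Smad4, and Ecel1 lay far below Ece1, Ece2 and Mme. Small proline-rich genes, Mmel1 and Kel are not drawn, because most of them are listed at 0 in at least 1 pool.

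Genes that work with this set came from 6 lists of the injury and growth response. Of their 114 genes outside the set, 92 were above 3 TPM in at least 1 pool. Of these 92, 0 were 2-fold apart, against the 1.64% of all genes given above, or 0.211% without microRNA and small nucleolar RNA genes, of which the lists hold none. The median log2 ratio was -0.02 over the 92 genes, -0.03 over the 8 genes of the set above 3 TPM and -0.02 over all genes above 3 TPM. Of all genes above 3 TPM, 56.4% had the lower value in the alum + KLH pool as deposited, 50.6% after the pools were scaled to an equal median and 79.3% relative to Hprt, and the counts by direction below are read against these shares.

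In the BMP pathway, which acts through Smad1, 14 of 21 genes exceeded 3 TPM in both pools. Of these, 10 had the higher and 4 the lower value in the alum + KLH pool, as against 11 and 3 with equal medians and 5 and 9 relative to Hprt. The type II receptor gene Bmpr2 was at 241 TPM in the alum pool and 266 TPM in the alum + KLH pool, and Id2, a transcriptional target of the pathway, at 245 and 247 TPM. The highest ratio was that of the BMP antagonist Nog, at 8.47 and 11.9 TPM (log2 ratio 0.44, neighbour SD 0.35). The lowest was that of Id3, another target, at 7.78 and 5.06 TPM (-0.54, SD 0.22). The ligand genes Bmp2, Bmp4, Bmp6 and Bmp7, named here after their values were seen, were all below 3 TPM, with a highest value of 1.27 TPM for Bmp2. Likewise named afterwards, the receptor gene Acvr2b, the antagonist gene Chrd and the inhibitory Smad6 were also below 3 TPM in both pools, and the other 14 genes of the list were above it.

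Of 9 genes for binding partners of Flrt3, 7 were above 3 TPM in both pools. Fgfr1, a growth factor receptor that Flrt3 can bind, was at 38.0 and 38.9 TPM, and Adgrl3 (latrophilin 3) at 33.9 and 31.2 TPM. Ratios ranged from -0.13 for Adgrl1 to 0.21 for Adgrl2, with 4 genes above 0 as deposited, 5 with equal medians and 2 relative to Hprt.

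Of 13 further injury-induced transcription factor genes, 12 exceeded 3 TPM in both pools, with 6 ratios above and 6 below 0 as deposited, 7 and 5 with equal medians, and 2 and 10 relative to Hprt. Atf3, a factor that marks injured sensory neurons and can bind AP-1 sites with Jun, was at 238 TPM in the alum pool and 219 TPM in the alum + KLH pool (log2 ratio -0.12, neighbour SD 0.18). Stat3 was at 188 and 166 TPM. Jun, a partner of Atf3, was named after its values were seen. It was at 117 and 94.5 TPM, a log2 ratio of -0.30 with a neighbour SD of 0.13. Of the Fos genes in the list, Fosl2 was at 61.4 and 64.5 TPM (0.07, SD 0.13) and Fosl1 was below 3 TPM, at 0.762 and 0.136 TPM. A link between any of these genes and Sprr1a was not tested. The range of the list ran from -0.46 for Myc, at 21.4 and 15.4 TPM, to 0.23 for Creb1, at 24.3 and 28.6 TPM. On the row of each gene with the highest TPM over both pools, Myc was the only gene of the 6 lists past 2-fold, at 9.91 and 0.0788 TPM (log2 ratio -3.34). The sum over its 4 rows was not past 2-fold. In the alum + KLH pool nearly all of the 15.4 TPM of Myc lay on its other rows. The gene total was lower there as well, and how reads were divided among the rows was not tested.

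Of 30 injury-induced peptides, cytokines and surface proteins, 22 were above 3 TPM in both pools and 8 below it in both. Nrn1 (neuritin) was at 1319 TPM in the alum pool and 1307 TPM in the alum + KLH pool and Cd44, an adhesion receptor, at 409 and 410 TPM. Hspb1 (HSP27), a small heat shock protein of injured sensory neurons, had the lowest ratio of all 92 genes. It was at 40.5 and 22.3 TPM, a log2 ratio of -0.83 with a neighbour SD of 0.15, and 0.6% of the 500 genes closest in level were at least as far apart. The highest ratio was that of the cytokine Il6, at 108 and 126 TPM (0.23, SD 0.12). Named after their values were seen, the neuropeptide genes Gal, at 45.6 and 30.7 TPM (-0.55, SD 0.14), and Nts, at 44.5 and 32.6 TPM (-0.44, SD 0.13), also had the lower value in the alum + KLH pool. Adcyap1, a more abundant neuropeptide gene of the list, did not, at 282 and 291 TPM (0.05, SD 0.19). Npy and Vip, likewise named afterwards, were below 3 TPM beside Sprr1a and Ecel1, Npy at 1.63 and 0.646 TPM and Vip at 0.174 and 0.374 TPM. In this list 16 of the 22 genes above 3 TPM had the lower value in the alum + KLH pool, and the median log2 ratio was -0.09. With equal medians it was 14 of the 22, and relative to Hprt 20.

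Of 24 genes of growth cone cytoskeleton and adhesion, 22 exceeded 3 TPM in both pools, and 16 of these (14 with equal medians, 18 relative to Hprt) had the lower value in the alum + KLH pool (median log2 ratio -0.08). Tuba1a, an α-tubulin, was at 3544 TPM in the alum pool and 2973 TPM in the alum + KLH pool and had the lowest ratio, -0.25 (SD 0.16). It has near-identical relatives among which reads may be divided, so its value is uncertain. Map1b, a microtubule-associated protein, was at 2591 and 2533 TPM, close to Stmn2. The highest ratio was 0.13, for Enah. Of 17 genes known to hold back axon growth, 15 exceeded 3 TPM in both pools. The lower value was in the alum + KLH pool for 10 of them as deposited, 10 with equal medians and 14 relative to Hprt, and the median log2 ratio was -0.08. Rtn4 (Nogo) was at 1682 and 1704 TPM and Rhoa at 340 and 321 TPM. The lowest ratio was -0.48, for Klf4 at 19.0 and 13.3 TPM, and the highest 0.18, for Dusp6 at 79.6 and 90.3 TPM.

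**Figure D4:**
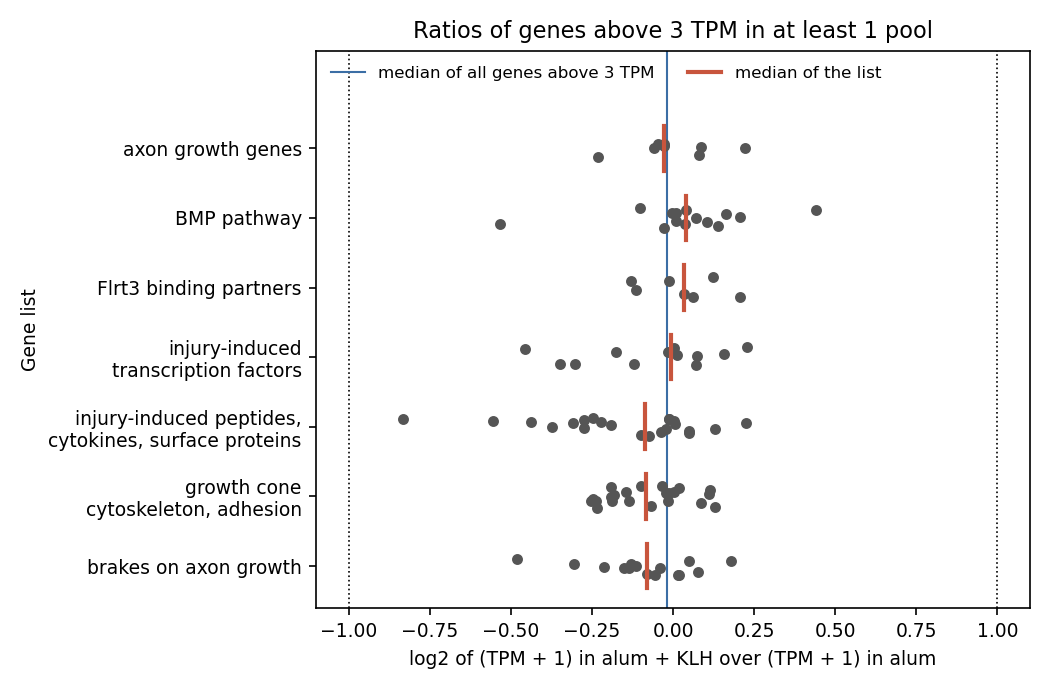
Points give log2 of (TPM + 1) in the alum + KLH pool over (TPM + 1) in the alum pool for each gene above 3 TPM in at least 1 pool, for the axon growth genes and for 6 lists, with list medians in red and the median of all genes above 3 TPM in blue. No point lies past the dotted 2-fold lines. The lowest is Hspb1 at -0.83 and the highest Nog at 0.44.

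Markers of the cell types in the ganglion were read with the set, since some of its genes are also made by glia. All 10 neuronal markers were above 3 TPM in both pools, led by Nefl, at 5259 TPM in the alum pool and 5048 TPM in the alum + KLH pool, and they summed to 12579 and 12507 TPM. Of 8 satellite glia markers, 7 were above the limit in both pools, with Fabp7 the highest at 953 and 888 TPM and a sum of 1484 and 1366 TPM, while Ptgds was listed at 0 in the alum pool. Of 10 Schwann cell markers, 7 were above it, with Pmp22 the highest at 1062 and 1021 TPM and a sum of 2251 and 2211 TPM. Most of this sum came from Pmp22 and S100b, the latter at 683 and 711 TPM. Prx, Mag and Sox10 were below the limit in both pools, Mag at 0.238 and 0.227 TPM and Sox10 at 1.25 and 1.03 TPM. S100b, Prx, Mag and Sox10 were named after their values were seen. The 8 fibroblast markers, with Dcn the highest at 63.8 and 62.6 TPM, summed to 115 and 113 TPM, and 4 were above the limit. The 12 macrophage markers summed to 11.7 and 11.5 TPM, with 1 above the limit, Lyz2 at 3.90 and 3.86 TPM. The 7 endothelial markers summed to 18 and 13.5 TPM, with 2 above the limit and Emcn the highest at 5.17 and 4.46 TPM. Of 6 proliferation markers 2 were above the limit in both pools, Pcna at 190 and 196 TPM and Birc5 at 6.08 and 6.70 TPM. Mki67 was at 3.04 and 2.43 TPM, and Top2a, Ccnb1 and Cdk1 were below the limit in both pools. The part of glia or other cells in the levels of the set was not tested.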

How the data were processed

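RNA-seq data of 2 libraries were analysed, each from the DRG neurons of 10 pooled mice. Per the labels and the methods of the study, the authors used a stranded mRNA kit, bcl2fastq, cutadapt and kallisto with the mm10 build. Their versions are not given in the sources used here. The deposited TPM values are reads assigned to a RefSeq transcript divided by its length and scaled to 1000000 per library. The methods of the study state a minimum read depth for both libraries. It was not used to infer counts, and no interval or detection floor was computed from TPM.

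TPM was summed per gene symbol. Ratios used a pseudocount of 1 TPM, neighbour SDs the 500 genes closest in mean log2(TPM + 1), and counts of 2-fold differences the genes above 3 TPM in at least 1 pool. With 1 library per group no test was made. The genes and lists were chosen with earlier results of these data known. Named are the 10 genes, their families, and per list the 2 highest genes, any past 2-fold and those with the highest and the lowest ratio, and per marker list the highest gene. Exons came from GENCODE M21 (GRCm38) by RefSeq identifier, promoters from RefSeq (GRCm38.p6), and shared 31-base words from GENCODE transcripts. Alternatives were pseudocounts of 0.1 and 0.5 TPM, limits of 1 and 10 TPM, no limit, the top row per gene, scaling of the pools to an equal median or to Hprt, and leaving out microRNA and small nucleolar RNA genes. The calculations were tested on simulated data. Python 3.11.15, numpy 2.4.6, pandas 2.3.3 and matplotlib 3.10.9 were used.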

Additional observations from a re-analysis of the deposited data

How the results depend on the processing

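With 1 library per group, no replicate could be left out. No paired analysis was possible because the result comes from no test and each group has a single library. Of 100 alternative values for single genes of the set, 4 differed from the reported value by more than the neighbour SD. With a pseudocount of 0.1 TPM the log2 ratio of Sprr1a was -2.38 and that of Ecel1 -0.66, and on its highest row alone Flrt3 was at 32.9 TPM in the alum pool and 35.2 TPM in the alum + KLH pool. With no filter on low values, 1 gene of the set, Sprr1a, was at least 2-fold apart. With the row of each gene that was highest over both pools, 1 gene of the 6 lists, Myc, was, while the sum over its rows was not. Relative to Hprt the median of all genes above 3 TPM shifted to -0.10, that of the set to -0.11, and Flrt3 moved from 0.08 to -0.0030, so that 6 rather than 5 of the 8 genes above 3 TPM had the lower value in the alum + KLH pool. Over all genes, the 2-fold differences numbered 81 higher and 110 lower in the alum + KLH pool, 25 and 49 above 10 TPM, and 6 and 18 without microRNA and small nucleolar RNA genes. Of 27 alternatives for summary values, the 2 named above moved. The number of genes of the set above 3 TPM in both pools, 8, was also 8 with limits of 1 and 10 TPM. No counting error could be computed from TPM, and Sprr1a and Ecel1 are below the 3 TPM limit.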
